A study of Mus musculus with 20 samples.

Results

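Of the 10078 H3K27ac peaks called in control (WT) hematopoietic stem cells (HSC) on chromosomes 1 to 19 and X, 4166 lay outside every region called as open chromatin or as H3K4me3. That is 41.3% of the list (95% exact Clopper-Pearson interval 40.4 to 42.3). They were chosen by called peaks: a WT H3K27ac peak was taken when it shared no base with any peak of the 6 ATAC-seq lists or of either H3K4me3 list. They are called outside peaks here. The other 5912 peaks are the rest of the list. The presence of the WT H3K27ac call and the absence of the other 8 are what chose these peaks, so neither is a finding. A wider peak has more bases that can meet a peak of another list, so width also enters the choice.

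The cells were HSC sorted by FACS from adult mice, all given poly(I:C), which induces interferon and through it the Mx1-Cre transgene. The groups were Mx1-Cre+/-;mTORflox/flox;c-Myc+/flox mice (KO MycHet), Mx1-Cre+/-;mTORflox/flox mice (KO) and Mx1-Cre-/-;mTORflox/flox mice (WT), so the control mice carried floxed alleles and had the injection too, but no Cre. Mx1-Cre acts in many interferon-responsive cells and not only in HSC. ChIP-seq of H3K27ac, H3K4me3 and MYC had 1 library per genotype in KO and WT, and ATAC-seq, from 50000 cells each, had 2 libraries per genotype in KO MycHet, KO and WT.

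H3K27ac is acetylation of lysine 27 on histone H3. It marks active promoters and enhancers, where nucleosomes flank a stretch of accessible DNA held open by transcription factors, so the mark and accessibility usually lie next to each other. H3K4me3 marks active promoters. ATAC-seq cuts accessible DNA with a transposase, and MYC is a transcription factor that binds mostly at promoters and enhancers that are already open.

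On these chromosomes the H3K27ac lists held 20036 peaks in KO and 10078 in WT, the MYC lists 22086 in KO and 8774 in WT, and the ATAC-seq lists between 17303 and 72149. Each list came from 1 library and carries no read counts, so the depth behind it, which sets its length in part, is unknown. With 1 library per target and genotype there is no spread between replicates and no test between genotypes. Shares are therefore given with exact 95% intervals, which cover counting error only, beside the same share over the whole list. Scores are the deposited values of the authors' peak caller. No list has a score under 50, the scale is not stated, and scores of different lists are not compared.

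Active promoters carry H3K4me3 or ATAC-seq calls, so the rule itself removed most peaks at promoters, and their number and base composition are given as a description. Among 32619 promoter windows of RefSeq genes (250 bases before to 50 after a transcription start, GRCm38.p6), 7 had an outside peak and 2332 had a peak of the rest of the list. The 7 belonged to 5 long noncoding RNA genes and to Cpa4 and Dip2b. The following stretches are the bases that 4 of these windows share with the outside peak, written 5′ to 3′ on the strand of the gene. They are shown because they are outside peaks whose letters can be read, and because they differ in how often their words recur. Capitals mark words of 24 bases that are also found, on either strand, in at least 10 other promoter windows more than 100 kb away or on another chromosome.
Gm34693: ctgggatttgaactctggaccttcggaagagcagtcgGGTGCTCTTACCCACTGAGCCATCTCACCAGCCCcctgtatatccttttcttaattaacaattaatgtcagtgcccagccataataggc
Gm30582: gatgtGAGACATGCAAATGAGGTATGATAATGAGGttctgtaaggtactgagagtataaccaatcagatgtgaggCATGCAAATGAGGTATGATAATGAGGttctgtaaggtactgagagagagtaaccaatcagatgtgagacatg
Gm4632: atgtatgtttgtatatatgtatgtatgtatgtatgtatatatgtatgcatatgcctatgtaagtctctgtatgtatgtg
Dip2b: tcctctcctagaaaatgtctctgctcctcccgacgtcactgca

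The Gm34693 stretch is chr4:141400761-141400886 on the minus strand. Its capitals cover 34 bases, and its most widespread word was in 14 other windows. The Gm30582 stretch, chr6:71479253-71479399 on the minus strand, has 56 bases in capitals and a repeated unit that the printed letters hold more than once. The Gm4632 stretch, chr14:79199362-79199440 on the minus strand, is a simple repeat built on ATGT, and no word of it was found in more than 5 other windows. The Dip2b stretch, chr15:100154146-100154188 on the plus strand, had no recurring word. These 4 were picked after their values were seen.

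Only the Gm4632 peak had a KO H3K27ac peak at the same place, with a KO score of 168.98 and a WT score of 50.88. The Gm30582 peak, with a WT score of 96.2, had a KO MYC peak (60.38). The peaks at Gm34693 (WT score 69.16) and Dip2b (56.38) had none in the KO H3K27ac, KO MYC or WT MYC lists. At Dip2b an ATAC-seq or H3K4me3 peak lay 310 bp away, and at Gm4632 92 bp away.

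Over the 7 windows with an outside peak, the median GC content was 46.3% (34.7 to 51.0%), against 59.0% in the windows with a peak of the rest of the list and 53.0% in all windows. The ratio of observed to expected CpG had a median of 0.228 (0.0645 to 0.469) in the 7, against 0.818 and 0.387. A word that recurs in 10 or more other windows was present in 2 of the 7 (28.6%, 3.67 to 71.0), in 1.84% of windows with a peak of the rest and in 4.17% of all windows. The MYC-type E-box CACGTG, which reads the same on both strands, was in 0 of the 7, in 11.6% of the 2332 and in 7.2% of all windows. With 7 windows the interval for that 0 reaches 41.0%.

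Outside peaks were narrow, and their median score was below that of the rest. Their median width was 261 bp (quartiles 212 and 302.8, range 103 to 3345), against 473 bp in the rest (320 and 732.2, range 108 to 5182). Of the outside peaks 85.2% were from 150 to under 400 bp wide, against 37.6% of the rest, and 70 of the 4166 (1.68%) were 600 bp or wider, against 2118 of 5912 (35.8%). The median score was 62.6 (quartiles 55.6 and 72.8, highest 323.38), against 70.3 in the rest (58.1 and 97.4, highest 3100). A score of 100 or more was held by 359 outside peaks (8.62%) and by 1408 of the rest (23.8%). These scores are not matched for width. From 150 to under 200 bp the median was 70.9 in outside peaks and 64.6 in the rest. From 300 to under 400 bp it was 61.9 and 60.4. Among wider peaks the outside ones were lower, with 63.0 and 68.5 from 400 to under 600 bp and 68.6 and 87.4 from 600 to under 1000 bp.

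**Figure D1:**
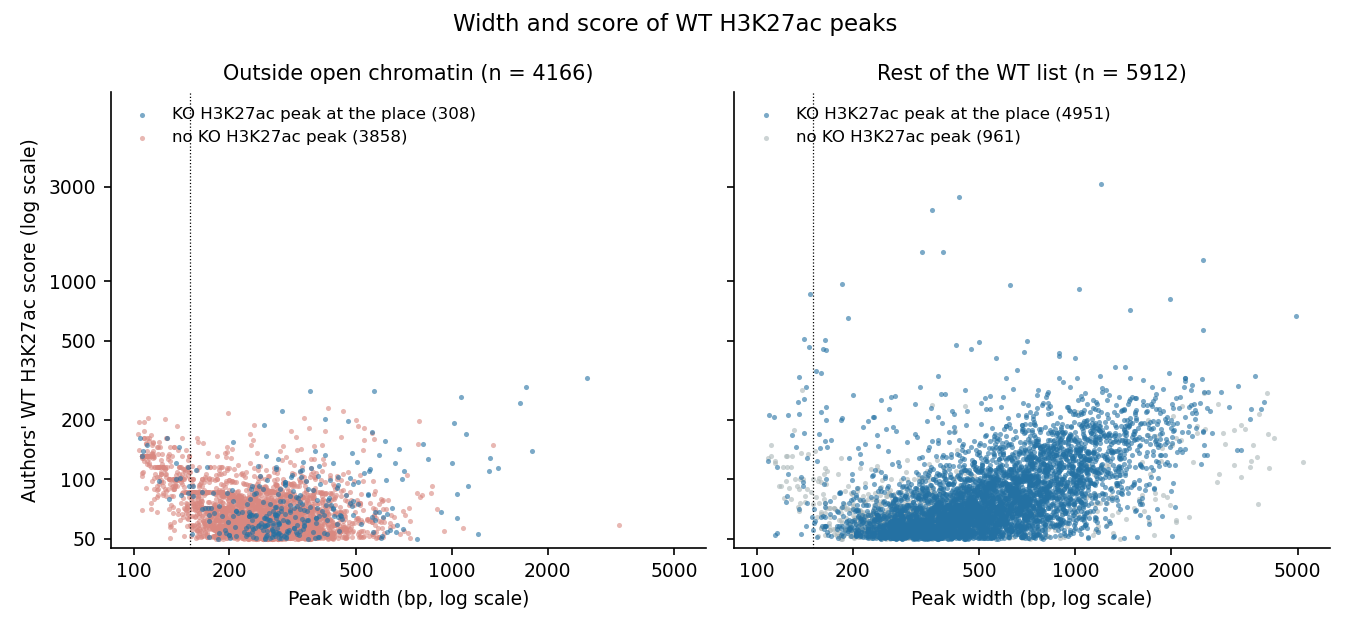
Width (bp, log axis) and the authors' score (log axis) of every WT H3K27ac peak, outside peaks in the left panel and the rest of the list in the right one, coloured by whether a KO H3K27ac peak lies at the same place; the dotted line marks 150 bp. The outside peaks sit mostly between 150 and 400 bp, with an arm under 150 bp whose median score is 108.7, while the rest extends to wide peaks with high scores.

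The narrowest and the widest outside peaks scored highest. The 261 outside peaks under 150 bp had a median score of 108.7, while the 1298 from 250 to under 300 bp had 59.4 and the 17 of 1000 bp or more had 128.2. In the rest of the list the same widths had 114.9, 58.3 and 132.0. Peaks under 150 bp made up 6.27% of the outside peaks and 1.07% of the rest. In the whole lists they were 0.015% of KO H3K27ac peaks (3 of 20036) against 3.21% of WT H3K27ac peaks (324 of 10078), and 0.131% of KO MYC against 0.422% of WT MYC peaks, with 0 in both H3K4me3 lists. Of the 261 narrow outside peaks, the highest score, 203.56, was on a 111 bp peak inside Zdhhc13, and a 104 bp peak 512.5 kb from Speer2 and a 108 bp peak 332.0 kb from Med13l both had 194.56. These 3 had no peak in the KO H3K27ac, KO MYC or WT MYC lists, and they were chosen after their values were seen.

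Many outside peaks had exactly the same score as others. A score held by another outside peak was found on 72.6% of them, and 53.7% of the rest shared a score among themselves. The score 71.9 was held by 70 outside peaks and 6 of the rest, 85.76 by 49 and 3, 130.16 by 38 and 3, 100.12 by 36 and 5, and 114.93 by 29 and 4. The 70 peaks with 71.9 were all between 165 and 192 bp wide and were spread over 20 chromosomes. Of the 38 with 130.16, 37 were under 150 bp. These 5 scores together held 222 outside peaks (5.33%), of which 9 had a KO H3K27ac peak (4.05%, 1.87 to 7.56), against 299 of the other 3944 (7.58%, 6.77 to 8.45). The 222 had a median width of 164 bp, against 264 bp for the others, so these shares are not matched for width. Of all outside peaks from 150 to under 200 bp, 4.5% had a KO H3K27ac peak. In the whole KO H3K27ac list no score was held by more than 14 peaks, against 76 in the WT H3K27ac list. Ties of this kind were also frequent in other lists, with up to 125 peaks at 1 score in the second ATAC-seq KO list and 41 in the KO MYC list.

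Most outside peaks were seen in the WT H3K27ac library alone. A KO H3K27ac peak lay at 308 of them (7.39%, 6.62 to 8.23), against 4951 of the rest (83.7%, 82.8 to 84.7) and 52.2% of the whole WT list. A KO MYC peak lay at 212 (5.09%), against 46.4% of the rest and 29.3% of the whole list. Each KO list was also reduced to its highest-scoring peaks, as many as the WT list of the same target holds. These shares of the outside peaks were then 2.76% for KO H3K27ac and 3.31% for KO MYC. The rest of the list was not counted against the reduced lists, so these lower shares have no background beside them. A WT MYC peak, from the same genotype, lay at 166 (3.98%), against 32.1% of the rest and 20.5% of the whole list. None of these 3 lists had a peak at 3660 outside peaks (87.9%, 86.8 to 88.8), against 664 of the rest (11.2%) and 42.9% of the whole list. The KO H3K27ac, KO MYC and WT MYC lists were not used to choose the outside peaks, but they mark the same kinds of region as the lists that were.

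The difference in sharing was present at matched width up to 1000 bp. From 250 to under 300 bp a KO H3K27ac peak lay at 5.78% of outside peaks, against 61.9% of the rest. From 300 to under 400 bp the shares were 9.64% and 81.0%, and from 400 to under 600 bp 16.8% and 93.2%. At 600 to under 1000 bp 20 of 53 outside peaks had a KO peak (37.7%, 24.8 to 52.1), against 97.1% of the rest. At 1000 bp or more the intervals met, with 14 of 17 (82.4%, 56.6 to 96.2) and 89.1% (86.7 to 91.3). Of these 17 widest outside peaks a KO MYC peak lay at 41.2% (18.4 to 67.1) against 67.4% (63.9 to 70.7), where the intervals also met, and a WT MYC peak at 11.8% (1.46 to 36.4) against 58.4% (54.7 to 61.9), where they did not.

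**Figure D2:**
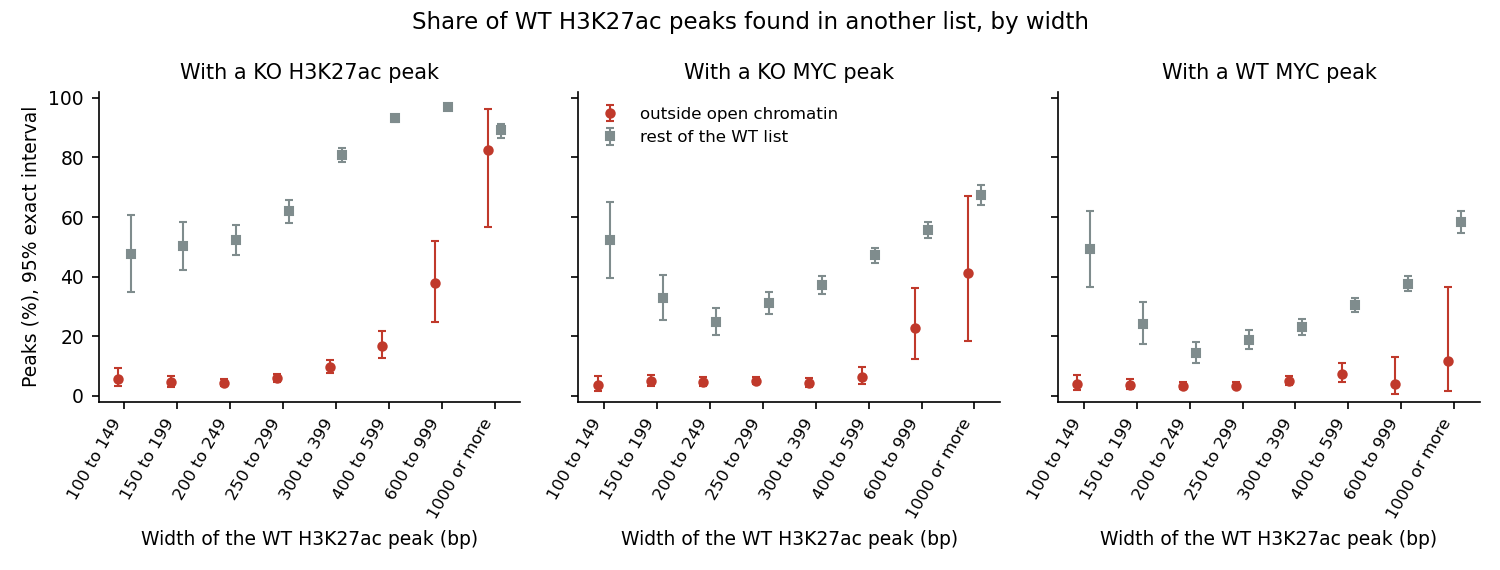
Share of WT H3K27ac peaks (%) with a peak of the KO H3K27ac, KO MYC or WT MYC list, by width of the WT peak (bp), for outside peaks (circles) and the rest of the list (squares), with exact 95% intervals. Outside peaks are lower in every width class under 1000 bp, and their KO H3K27ac share climbs to 82.4% at 1000 bp or more.

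A high score went with sharing among outside peaks of 150 bp or more, and not among narrower ones. A KO H3K27ac peak lay at 5.51% of outside peaks that scored under 60 and at 18 of the 61 that scored 150 or more (29.5%, 18.5 to 42.6), against 76.3% and 94.9% of the rest. Of the 173 outside peaks under 150 bp with a score of at least 100, 10 had a KO peak (5.78%), against 5.68% of the 88 with a lower score. Of the 186 that were 150 bp or wider with such a score, 54 had one (29.0%, 22.6 to 36.1), against 6.43% of the 3719 with a lower score. In the rest of the list 51.4% of narrow and 94.1% of wider peaks with such a score had a KO peak.

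The few outside peaks shared with 1 list were often shared with another. Of the 212 with a KO MYC peak, 88 also had a KO H3K27ac peak (41.5%), against 5.56% of those without KO MYC. Of the 166 with a WT MYC peak, 67 had a KO H3K27ac peak (40.4%), against 6.03% without, and 52 had a KO MYC peak (31.3%), against 4.0% without. In the rest of the list these contrasts were 91.7% against 76.8%, 1705 of 1895 against 80.8%, and 77.3% against 31.8%. The 27 outside peaks with a peak in all 3 lists had a median score of 93.2 and a median width of 326 bp, against 62.0 and 258 bp for the 3660 with none. In peak lists alone, acetylation and binding cannot be told apart from background common to several libraries, and which of them these shared calls hold was not tested.

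Openness in more libraries went with more sharing, and even WT peaks touched by few open lists were shared far more often than outside peaks. A KO H3K27ac peak lay at 7.39% of outside peaks, at 56.2% of the 251 WT peaks with an ATAC-seq peak in 1 of 6 lists, and at 93.2% of the 3036 open in all 6. The 260 peaks with H3K4me3 but no ATAC-seq peak had 64.6%. Median width and score at 1 open list were 329 bp and 65.2, against 261 bp and 62.6 for the outside peaks. That width is above the upper quartile of the outside peaks (302.8 bp), so these shares are not matched for width. Of the WT peaks that a single one of the 8 lists kept from being outside peaks, 275 in all, 119 had a KO H3K27ac peak (43.3%). H3K4me3 alone kept 86 by its KO list and 25 by its WT list. The second ATAC-seq lists alone kept 46 in KO and 82 in WT. Part of the 275 was thus chosen by a call in KO.

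**Figure D3:**
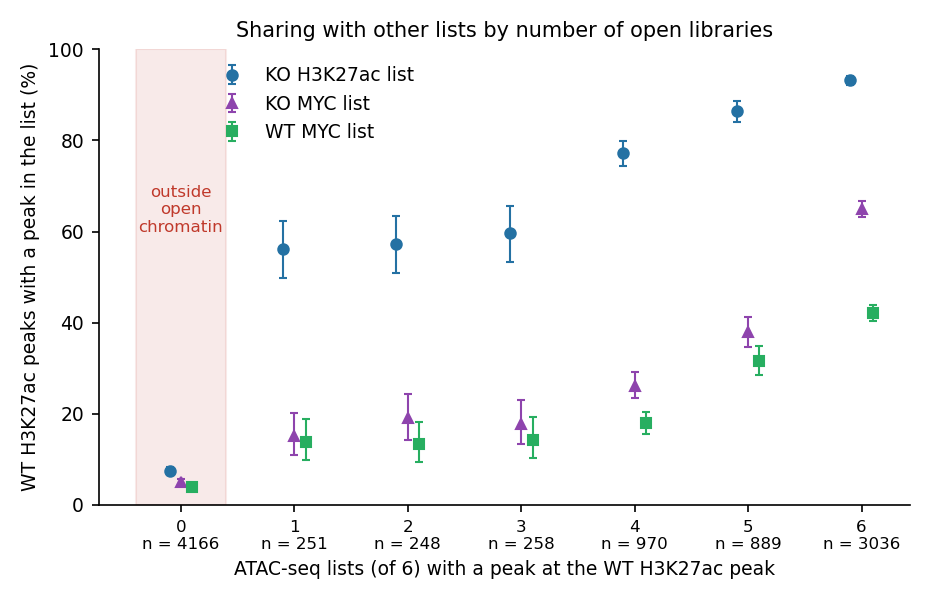
Share of WT H3K27ac peaks (%) with a peak of the KO H3K27ac, KO MYC or WT MYC list, by the number of the 6 ATAC-seq lists with a peak there, with exact 95% intervals; the shaded column holds the outside peaks, and the 260 peaks with H3K4me3 alone are not drawn. The KO H3K27ac share is 7.39% in the shaded column, 56.2% at 1 list and 93.2% at 6.

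Outside peaks with a KO H3K27ac peak lay nearer to an ATAC-seq or H3K4me3 call than those with none of the 3 other lists. Of all outside peaks 27.5% had such a call within 5 kb and 41.9% within 10 kb. The rule excludes calls that share a base, and gaps of other places were not measured, so these values have no background. The median gap to the nearest ATAC-seq or H3K4me3 peak was 15.5 kb for all outside peaks, 4.38 kb (interval of the median 3.63 to 5.89) for those with a KO H3K27ac peak and 17979 bp (16277 to 19336) for those with none of the 3 lists. A gap of at most 1 kb was found for 27.6% of those with a KO peak, against 7.19% of those with none of the 3. At the edge of the rule, the 55 outside peaks with a gap of at most 100 bp had a median width of 249 bp, a median score of 60 and a KO peak at 18. The 83 peaks just on the other side, which shared at most 100 bp with a peak of the 8 lists, had 282 bp, 63.5 and a KO peak at 35.

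The rule keeps the place of an outside peak clear of ATAC-seq and H3K4me3 calls. A KO peak there could meet one only beyond the WT peak, so the share that met none is set in part by the rule. At 247 of the 308 (80.2%) the KO peak overlapped no ATAC-seq or H3K4me3 peak. Those KO peaks numbered 240, with a median width of 508 bp, and were wider than the WT peak in 217 of 247 cases. At the other 61 the KO peak reached an open or H3K4me3 region, had a median width of 2028 bp and was wider in all 61. By the same rule the KO H3K27ac list held 2926 outside peaks of 20036 (14.6%, 14.1 to 15.1), against 41.3% in the WT list. Among the 10078 highest-scoring KO peaks, as many as the WT list holds, 318 were outside (3.16%). That cut drops low-scoring KO peaks, while the WT list keeps its own. The median score was 61.9 for KO outside peaks and 120.5 for the rest of the KO list, so 3.16% and 41.3% are not like for like. Of the 2926, 242 overlapped any WT H3K27ac peak (8.27%, 7.3 to 9.33), 240 of them an outside one, against 27.2% of the rest of the KO list. So in each genotype most H3K27ac calls outside open chromatin had no counterpart in the list of the other. In KO this was also true of the rest of the list, and in WT it was not. The MYC lists had 54.8% in KO and 39.5% in WT outside by this rule.

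Of the 10 highest-scoring outside peaks, 7 had a KO H3K27ac peak, 4 were 1000 bp or wider and 4 lay inside a protein-coding gene. The highest was inside Ide, which encodes the insulin-degrading enzyme, at chr19:37299048-37301695 (mm10). It was 2648 bp wide, with scores of 207.54 in the KO H3K27ac list, 323.38 in the WT list and 99.1 in the WT MYC list, and the nearest ATAC-seq or H3K4me3 peak was 7.71 kb away. A 1704 bp peak inside Tatdn1, of the TatD nuclease family, scored 95.92 in KO and 291.38 in WT. The peak 18.5 kb from Man1a, a Golgi mannosidase of N-glycan trimming, scored 103.78 in KO and 278.6 in WT. Inside Tbc1d10a, a Rab GTPase-activating protein, the scores were 169.75 in KO and 278.2 in WT.

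Others of the top 10 also had a MYC peak. The peak inside Fam135a scored 290.58 in KO and 260.97 in WT for H3K27ac and 118.05 for KO MYC. Beside Iqgap1, a cytoskeletal scaffold protein, a 1638 bp peak was present in all 4 lists, with H3K27ac scores of 245.35 in KO and 241.71 in WT and MYC scores of 71.36 in KO and 77.98 in WT. A 293 bp peak 691.0 kb from Fat4, an atypical cadherin, was in all 4 lists too, with H3K27ac scores of 181.1 in KO and 221.73 in WT and MYC scores of 72.01 in KO and 129.33 in WT. It lay 111.7 kb from the nearest open or H3K4me3 call. A peak 26.2 kb from Sash1, an adaptor protein (WT score 229.49), and a peak 352.5 kb from its nearest gene Mef2c, which encodes a transcription factor (221.47), had a WT MYC peak and no KO H3K27ac peak. The tenth, 198 bp wide and 11.2 kb from the pheromone receptor gene Vmn2r72, scored 216.21 and had none of the other lists.

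The next outside peaks with a KO H3K27ac peak, by WT score, lay inside Ints9, a subunit of the Integrator complex of RNA 3′ end processing (56.64 in KO, 200.42 in WT), inside Rnf212, a factor of meiotic recombination (68.83 in KO, 195.74 in WT), and inside Ankrd44, a regulatory subunit of protein phosphatase 6 (312.3 in KO, 191.92 in WT). Peaks present in all 3 other lists lay inside Mycbp2, a ubiquitin ligase, inside Pnliprp2, a lipase, inside Tenm2, a teneurin of neuronal adhesion with a KO MYC score of 328.64, 9.08 kb from Snx2, a sorting nexin, and 230.5 kb from Prr16. Cadm2, a synaptic adhesion molecule, had 1 inside and 1 at 271.2 kb, which lay 743.5 and 377.2 kb from any ATAC-seq or H3K4me3 call.

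Outside peaks were scattered along chromosomes rather than grouped. Another outside peak lay within 10 kb of 155 of them (3.72%, 3.17 to 4.34), while 22.4% of the rest had another of the rest that near. The median gap to the nearest peak of the same kind was 203.6 kb for outside peaks and 46.3 kb for the rest. A peak of the rest of the list lay within 10 kb of 4.18% of outside peaks. Joined over gaps of at most 10 kb, they formed 4011 single peaks, 73 pairs and 3 groups of 3. The groups inside Sipa1l1, a regulator of Rap GTPases (chr12:82317827-82319502), and inside Herc2, a giant ubiquitin ligase (chr7:56160298-56162700), had a KO H3K27ac peak at all 3 of their peaks, and the group 691.0 kb from Ccdc85a had none.

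Of 2641 windows of 1 Mb, 616 (23.3%) held no outside peak, 838 held 1, and 3 held 8. One of the 3, chr12:115000001-116000000, held 54 annotated V segments of the immunoglobulin heavy chain locus, with 2 of its 8 peaks shared with KO. The others were chr7:126000001-127000000, with 1 of 8 shared, and chrX:8000001-9000000, with none.

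The density of outside peaks changed little between chromosomes. On autosomes it ran from 13.6 per 10 Mb on chromosome 18 to 20.2 on chromosome 19, with a median of 15.9, and it was 13.4 on X. The rest of the list ran from 16.6 to 40.7 per 10 Mb on autosomes, with a median of 22.8, and was 6.68 on X. On X the outside peaks therefore made up 66.7% of WT H3K27ac peaks, against 29.9 to 46.6% on autosomes. KO outside peaks had 3.05 per 10 Mb on X, against 8.25 to 18.8 on autosomes, and made up 11.6% of the KO list there, within the autosomal range of 11.1 to 18.3%. Of the 228 WT outside peaks on X, 11 had a KO H3K27ac peak (4.82%), against 5.69 to 10.5% per autosome.

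**Figure D4:**
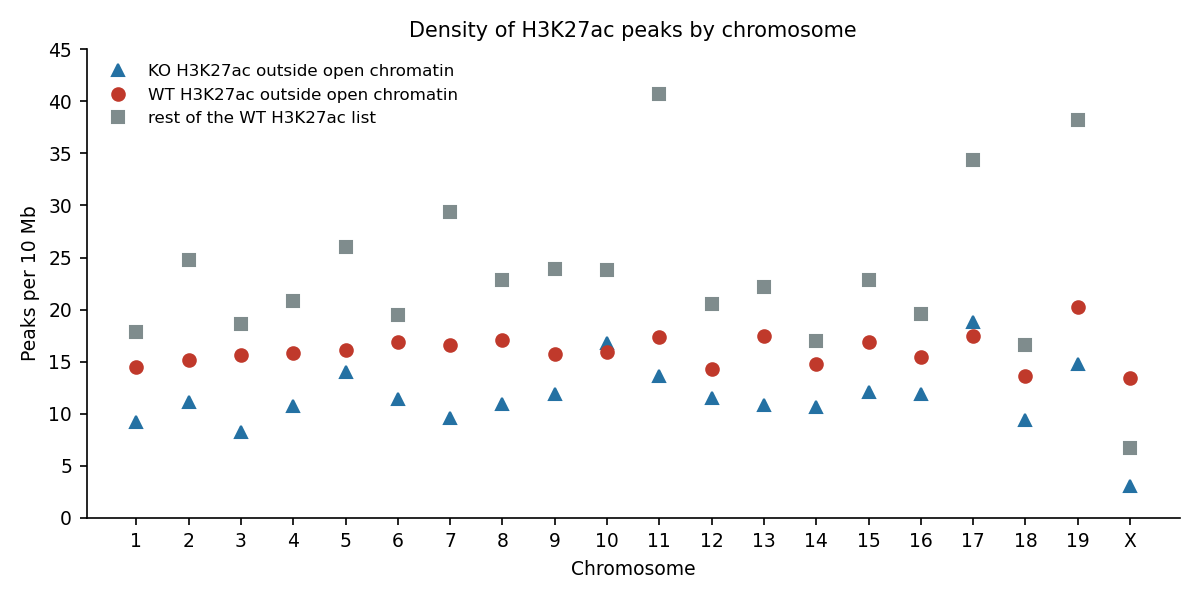
Peaks per 10 Mb on each chromosome for KO H3K27ac outside peaks (triangles), WT H3K27ac outside peaks (circles) and the rest of the WT list (squares). The WT outside peaks stay between 13.4 and 20.2 on every chromosome, X included, while the KO outside peaks drop to 3.05 and the rest of the WT list to 6.68 on X.

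Outside peaks lay in genes about as often as the share of the genome that genes cover. They were inside a protein-coding gene in 37.2% of cases (35.7 to 38.7), while such genes cover 39.1% of the span up to the last annotated gene, and the rest of the list was inside one in 66.6%. Those with a KO H3K27ac peak were inside one in 52.9% (47.2 to 58.6), against 35.7% (34.1 to 37.3) of those with none of the 3 lists. An end of a protein-coding gene lay within 1 kb of 72 outside peaks (1.73%), against 46.3% of the rest, a contrast that the rule largely sets, since it removed peaks with H3K4me3 or open chromatin, which active gene starts carry. Outside peaks that were not in a protein-coding gene had a median distance of 69.5 kb to the nearest, against 10.5 kb for the rest.

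A protein-coding gene was reached, inside or within 1 kb, by an outside peak in 1393 of 21631 cases (6.44%) and by a peak of the rest in 4338 (20.1%). The genes reached by outside peaks were long, with a median of 99.6 kb, against 24.9 kb for those reached by the rest and 17.3 kb for all. Of the 557 genes over 300 kb, 49.7% had an outside peak and 26.9% a peak of the rest, while of the 7742 genes under 10 kb 0.62% had an outside peak and 13.4% a peak of the rest. Per Mb of gene the outside peaks numbered from 0.865 in the shortest genes to 1.76 at 30 to 100 kb and 1.29 in the longest. The rest had 26.7 per Mb in the shortest genes and fewer in each longer class, down to 0.699 in the longest.

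**Figure D5:**
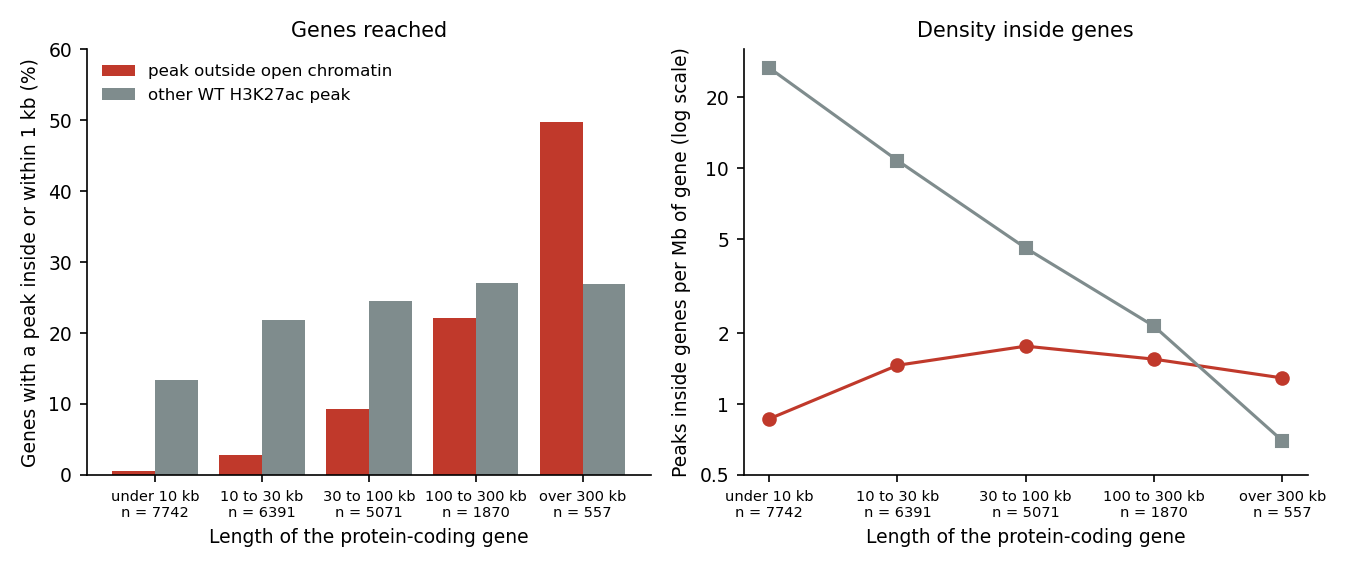
Left, protein-coding genes (%) with an outside peak or a peak of the rest of the WT list inside or within 1 kb, by gene length; right, peaks inside genes per Mb of gene on a log axis. Outside peaks reach 49.7% of genes over 300 kb, and their density stays between 0.865 and 1.76 per Mb while that of the rest is 26.7 in the shortest and 0.699 per Mb in the longest genes.

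Very long genes, most of them known from neurons, held many outside peaks and few others. Of 40 listed, 32 had an outside peak, against 6.44% of all genes, and 4 had a peak of the rest. Their median length was 1209.9 kb, and their 60 outside peaks came to 1.12 per Mb, below the 1.49 per Mb of all genes. A KO H3K27ac peak lay at 1 of the 60, against 163 of the 1549 outside peaks inside any protein-coding gene and 7.39% of all outside peaks. Ptprt, a receptor tyrosine phosphatase of neurons, held 6, the most of any named gene, with WT scores from 52.5 to 71.9, no peak of the other 3 lists and no call of the 8 lists within 146151 bp of any of them. Csmd3, a large transmembrane protein of neurons, held 4 with scores from 54.48 to 161.72. Cntnap2, of neuronal adhesion, held 3, of which the highest, with a score of 156.35, was 112 bp wide.

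Pde4d, a cAMP phosphodiesterase expressed in many tissues, held 5 outside peaks and 3 of the rest, and 2 of the 5 had a KO H3K27ac peak. Those 2 lay 967 and 257 bp from the nearest open or H3K4me3 call, and the other 3 between 4623 and 25816 bp. In Lrmda 2 of 4 had a KO peak, at gaps of 16 and 29263 bp. The carboxypeptidase gene Agbl4 held 5, the kainate receptor gene Grik2, the cadherin gene Cdh18 and the potassium channel regulator Kcnip4 held 4 each, and the dynein gene Dnah7c and the channel subunit Dpp10 held 3 each. None of these had a KO H3K27ac peak, which 7.39% of all outside peaks had. Of those in Cdh18, 1 with a WT score of 181.61 had a WT MYC peak of 164.1.

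Of 30 listed genes of HSC identity, 4 (13.3%) had an outside peak and 14 a peak of the rest, against 6.44% and 20.1% of all protein-coding genes. The listed genes were longer, with a median of 33.7 kb against 17.3 kb for all. Per Mb of gene the 5 outside peaks inside them came to 1.75, near the 1.49 of all genes. Mecom, a zinc finger factor needed for HSC maintenance, had 1 with a WT score of 106.29, at 433 bp from the nearest open or H3K4me3 call. Meis1, a homeobox factor, had 1 (60.99), and Tek, the angiopoietin receptor of quiescent HSC, which was named after its values were seen, had 1 (53.17). Runx1, a master regulator of blood formation, had 2 (57.57 and 50.64), of which the second lay 176 bp from an open or H3K4me3 call and had a KO MYC peak of 107.83. No outside peak at these 4 genes had a KO H3K27ac peak. Of all outside peaks 7.39% had one, and 5 peaks are too few to be set apart from that share.

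Markers of mature blood cells had at most 1 gene with an outside peak per list, which at 6.44% of all genes is near the background for lists of this size. Car1, a carbonic anhydrase of the erythroid lineage, was the only one of 14 erythroid genes, with H3K27ac scores of 68.6 in KO and 51.85 in WT and a KO MYC peak of 159.53. Vwf, the clotting factor made by megakaryocytes and endothelium and active in part of the HSC, was the only one of 10 megakaryocyte genes, with 87.03 in KO, 65.31 in WT and a KO MYC peak of 61.82. Klrd1, an NK cell receptor, was the only one of 14 T and NK cell genes (52.6 in WT, no KO peak). The 14 myeloid, 12 B cell and 8 MYC network genes had none. Among receptor genes of sensory neurons, 4 of 1110 olfactory (0.36%) and 5 of 355 vomeronasal genes (1.41%) had one, all without a KO H3K27ac peak. These peaks are too few to be set apart from the 7.39% of all outside peaks that had one. At a median length of under 1 kb the receptor genes offer little sequence, and the 1 and 4 peaks inside them came to 0.47 and 1.09 per Mb.

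Of the outside peaks within 1 kb of a gene end, the highest-scoring were mostly narrow and mostly had none of the other 3 lists. Both traits were common among outside peaks anywhere. Of all outside peaks 87.9% had none of the 3 lists, and of the 359 with a score of 100 or more, 173 were under 150 bp. Beside Meox1, a homeobox factor, a 108 bp peak scored 161.72. Plxna2, a semaphorin receptor (133.41), Atp6v1c2, a proton pump subunit (130.16), the odorant receptor gene Olfr1112 (100.12), the co-chaperone gene Dnajc22 (100.12), the protease gene Tmprss6 (94.51) and Uso1, a vesicle tether of the Golgi (92.8), had peaks under 150 bp as well. These 7 and the 221 bp peak at Mfsd11 had none of the other 3 lists. The other 2 of the 10 had a KO MYC peak, at Lypd4 (639.21, with H3K27ac scores of 214.59 in KO and 113.42 in WT) and at Sox8, a transcription factor gene of neural crest and glia (254.95, with no KO H3K27ac peak).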

How the data were processed

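The deposited peak lists of 12 of 20 samples were used, and the 8 RNA-seq samples were not analysed here. Each list gives position, name and a score, the value the authors deposited from a caller of the MACS type, per the peak names in the files. The build was mm10 and CASAVA was used, per the submitters' processing notes. The sources used here do not give the aligner, the settings of the peak caller, any input control or the depth. Peaks were called per library. Chromosome Y was set aside, and overlap means at least 1 bp shared.

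Gene ends came from RefSeq GRCm38.p6, the assembly of mm10. That table has no exons, so no exon or intron is stated, and gene positions are 1-based. Promoter sequences are RefSeq's. Overlaps were computed with Python 3.11.15, numpy 2.4.6 and pandas 2.3.3, intervals with scipy 1.17.1, and the functions were tested on simulated intervals and against bedtools 2.31.1.

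No p-value was computed. The peaks, gene lists and naming rule were chosen with earlier results of these data known. Named were the 10 highest outside peaks, the 10 highest with a KO H3K27ac peak, the 10 highest in all 3 other lists, the 10 highest within 1 kb of a gene end, the largest groups, the 10 genes with most outside peaks and up to 3 genes of each list, with Tek added afterwards. Predicted genes were passed over, except in the promoter set, and a few genes that the rule takes are not reported here. Alternatives changed the overlap, the lists of the rule, the score minimum, the ATAC-seq libraries and the distances.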

Additional observations from a re-analysis of the deposited data

How the results depend on the processing

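Of 105 alternatives computed, 80 left the value within its interval or the count within 1.5 times, and 25 moved it. The 80 include every value with an ATAC-seq list left out. No ATAC-seq list by itself removed more than 82 WT peaks, so those alternatives could change little. The number of outside peaks was 359 at a score of 100 or more. At that minimum the median width was 154 bp, the median score 116.9, and the shares were 17.8% with KO H3K27ac, 11.7% with KO MYC, 14.2% with WT MYC, 70.2% with none of these 3, 0.557% within 10 kb of another and 41.2% inside or within 1 kb of a protein-coding gene. A KO H3K27ac peak lay at 9.5% (85.7% with none of the 3) when a peak was removed only where covered over at least 50% of its length, at 5.87% (89.4%) when calls within 1 kb also removed it, and at 9.02% (85.9%) when the WT lists alone did. Counting another peak within 1 kb gave 8.64% for KO H3K27ac, 6.41% for KO MYC, 4.8% for WT MYC and 85.7% for none. With each KO list reduced to the length of the WT list the shares were 2.76% for KO H3K27ac and 3.31% for KO MYC. The rest of the list was not counted at that length. Another outside peak was within 5 kb at 2.21% and within 50 kb at 17.7%, and 43.8% were inside or within 5 kb of a protein-coding gene and 46.8% inside or within 1 kb of any annotated gene. Under the 4 alternatives to the rule and the score the rest of the list kept a KO H3K27ac share of 80.2 to 93.0%. The causes of these moves were not tested.

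Leaving out each ATAC-seq list in turn gave 4172 to 4248 outside peaks, a median width of 260.5 to 261 bp and score of 62.5 to 62.6, and shares of 7.41 to 8.07% with KO H3K27ac, 5.1 to 5.3% with KO MYC, 4.0 to 4.1% with WT MYC, 87.1 to 87.8% with none, 3.71 to 3.79% within 10 kb of another and 38.2 to 38.6% at a protein-coding gene. No paired analysis was possible because every result is a count, a median or a share from 1 H3K27ac library and comes from no test. Depth limits all of this: a place without a KO or MYC peak is one not called at an unknown depth.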

Other observations

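Chromosome Y, left out above, held 108 WT and 31 KO H3K27ac peaks. By the same rule 8 of the 31 in KO were outside ATAC-seq and H3K4me3 peaks, and 76 of the 108 in WT. The 76 had a median score of 65.0, 3 had a KO H3K27ac peak, 0 a KO MYC peak and 21 a WT MYC peak. The other WT peaks on Y were not counted this way, so these counts have no background.

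The antigen receptor loci were looked at after the window at the heavy chain locus had been seen. Igh held 12 outside peaks, or 4.36 per Mb against 1.58 per Mb over all chromosomes, with a KO H3K27ac peak at 2 and a score of 100 or more at 1. Trb held 3 (4.5 per Mb), Tra and Trd together 4 (2.23 per Mb) and Igk 4 (1.26 per Mb). Igl and Trg held none.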
